A study of Mus musculus with 15 samples.

Results

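The 4 serine tRNA fragments, SerAGA, SerCGA, SerGCT and SerTGA, were examined in mouse sperm. They were chosen by name, as the rows that carry serine and an anticodon, with earlier results of these data known. They are 4 of the 47 tRNA fragments (tRFs) measured in 15 males of the C57BL/6 strain (the substrain C57BL/6NTac, by the study's methods). F0 males were fed either a control diet (CO, n = 3) or a lard-based obesity-inducing diet (OID, n = 4) from weaning. F1 males were their sons, bred from females on the control diet and themselves fed only the control diet, with a CO father (n = 4) or an OID father (n = 4), so that in F1 the group names stand for the diet of the father. Sperm came from the caudal epididymis and was treated with a buffer that lyses somatic cells, and RNA fragments of 30 to 45 nucleotides were cut from a gel on which the barcoded samples had been pooled. The labels do not say whether the libraries of a group come from separate litters, so that the p-values measure only the spread between these samples.

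A serine tRNA carries serine to the ribosome and reads serine codons through its anticodon. The anticodon GCT reads the codons AGC and AGT, CGA reads TCG, and TGA reads mainly TCA. AGA, once its first base is turned into inosine, reads codons that include TCT and TCC. Serine tRNAs belong to the class with a long variable arm, to which leucine and selenocysteine tRNAs also belong. Cleavage of tRNAs near the anticodon gives fragments that are abundant in mature sperm.

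In the RefSeq annotation of GRCm38.p6, the build that the reads were aligned to, the mouse has 21 serine tRNA loci for these anticodons, each 82 bases long. There are 7 loci for SerAGA, 3 for SerCGA, 8 for SerGCT and 3 for SerTGA, and 12 of the 21 lie on chromosome 13. Set against GENCODE M21, 16 of them lie outside annotated genes. All reads of an anticodon are 1 value in the table, so the loci of an anticodon are not told apart. The sequence of 1 SerGCT locus is shown, because SerGCT made up most of the serine family. It is read from the GENCODE M21 transcript over n-TSgct5 (chr13:22050686-22050767, minus strand, opposite to an exon of Gm48356), and it runs from 5′ to 3′ with the anticodon in capitals.
SerGCT n-TSgct5: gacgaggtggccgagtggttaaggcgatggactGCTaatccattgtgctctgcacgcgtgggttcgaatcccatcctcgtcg

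The other 3 serine tRFs are given here by name. The authors added reads shared between tRNAs with a weight that follows their alignment score, so a fragment that serine tRNAs have in common could count towards more than 1 of the 4 values. The values are therefore uncertain as fully separate quantities. Which end of the tRNA the counted fragments come from is not given in the sources used here.

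The table gives a normalized value per tRF and library, which the paper names TPM, although the rows of 1 library sum to more than 1000000. After an offset of 0.5 was taken off, all 705 tRF values were whole multiples of 1 amount per library to within 0.001 reads. The reads behind each value could thus be recovered. By the paper's methods these are weighted reads, so they need not equal the reads sequenced. Libraries held from 17966 to 5363471 tRF reads, and OID libraries were deeper, by a ratio of medians of 4.30 in F0 (two-sided exact permutation p = 0.114 for log2 depth) and of 4.73 in F1 (exact permutation p = 0.0857). GlyGCC and GluCTC, the leading tRFs of mature sperm, were the highest tRFs in 15 of 15 libraries, with 67.2% to 82.0% of the tRF values, and the table holds no protein-coding marker of another cell type.

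The serine tRFs were a minor and sparsely counted family. Their sum made up between 0.0828% and 0.425% of the tRF values of a library. CO F0 libraries held 574, 277 and 40 serine reads. OID F0 libraries held 15089, 244, 7652 and 811. CO F1 libraries held 3740, 52, 3323 and 1231 serine reads, and OID F1 libraries 2800, 5093, 3945 and 8889. CO F0 replicate 3 and CO F1 replicate 2, with 40 and 52 reads, were also the only libraries with fewer than 100000 tRF reads, and the fold changes, shares and ratios of the diets are given with and without them. In CO F0 replicate 3 a single read was worth 48.2 units of the normalized value, against 0.105 units in OID F0 replicate 1. In sum, the normalized value of the family averaged 1184 ± 652 (SD, n = 3) for CO F0, 1589 ± 587 (SD, n = 4) for OID F0, 1433 ± 556 (SD, n = 4) for CO F1 and 1110 ± 203 (SD, n = 4) for OID F1 males. In every group pair of the same generation these sums overlapped. With bulk sperm RNA, fewer sperm with a fragment and less of it per sperm cannot be told apart.

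SerGCT had the highest normalized value of the family in 15 of 15 libraries, and SerAGA came next in 13 of 15. Over all libraries the normalized value of SerGCT had a median of 790 and a range of 427 to 1847. The median was 146 for SerAGA (range 106 to 338), 77.8 for SerTGA (59.8 to 151) and 75.6 for SerCGA (30.8 to 207). The medians of SerTGA and SerCGA lay closer together than the values of either over the males. SerCGA was the most variable, with its highest value 6.74 times its lowest, against 4.33 times for SerGCT, 3.18 for SerAGA and 2.52 for SerTGA. Ranked among all 47 tRFs by summed value, SerGCT was number 25, SerAGA 40, SerTGA 42 and SerCGA 43. These are values per library scale and not per base, and the annotated tRNAs are of the same length.

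**Figure D1:**
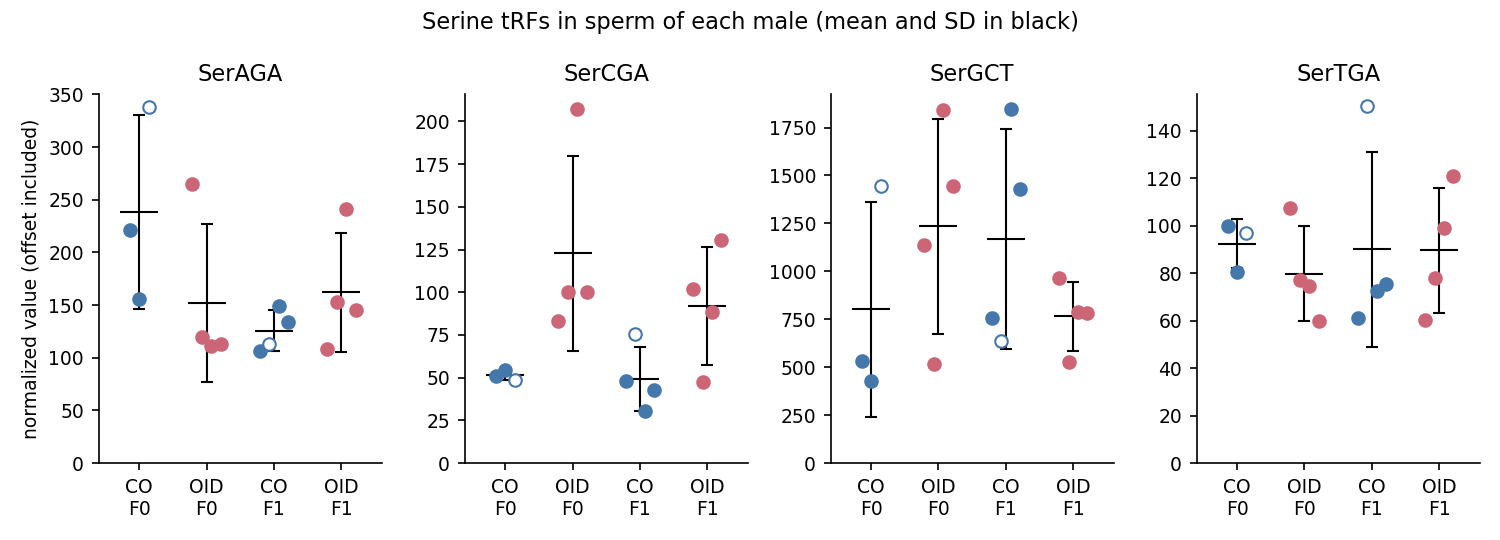
Normalized value (y axis, offset of 0.5 included, a separate linear scale for each tRF) of the 4 serine tRFs in each male, by group on the x axis. Blue is CO and red is OID, open circles are the 2 libraries with fewer than 100 serine reads, and black bars are the mean and SD. In SerCGA all 4 OID F0 males sit above the 3 CO F0 males, and in the other 3 tRFs the groups of a generation overlap.

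SerCGA, the fragment of the tRNA that reads TCG codons, had higher means in OID than in CO males of both generations, with differences that did not pass the threshold after adjustment. In CO F0 males its normalized value was 50.9, 54.7 and 48.7, from 32, 21 and 1 reads. In OID F0 males it was 83.1, 100.2, 207 and 100.01, from 783, 30, 710 and 47 reads. Every OID male lay above every CO male, and OID replicate 3 stood highest. The means were 51.5 ± 3.06 (SD, n = 3) for CO and 123 ± 57.1 (SD, n = 4) for OID, a ratio of 2.38, with a limma log2 fold change of 1.14 (SE 0.36, 95% interval 0.31 to 1.98, adjusted p = 0.106). The exact permutation test on the single tRF gave p = 0.0571 (two-sided), the smallest that 3 against 4 allows. Without OID replicate 3, the log2 fold change was 0.86 (limma adjusted p = 0.0647), and without the shallow CO replicate 3 it was 1.10 (limma adjusted p = 0.162). The value of CO replicate 3 rests on 1 read, for which the 95% Wilson interval of its share of all tRF reads runs from 0.000983% to 0.0315%, so the small SD of the CO group understates the counting error.

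In F1 the difference of SerCGA was of the same direction. CO males had 47.9, 75.6, 30.8 and 42.9 units, from 183, 4, 48 and 31 reads. OID males had 102, 47.6, 88.4 and 131 units, from 230, 298, 285 and 982 reads. Here the groups overlapped, since OID replicate 2 lay below CO replicates 1 and 2. The means were 49.3 ± 18.9 (SD, n = 4) for CO and 92.1 ± 34.5 (SD, n = 4) for OID, a ratio of 1.87. The limma log2 fold change was 0.87 (SE 0.37, 95% interval 0.05 to 1.69, adjusted p = 0.272), and the two-sided exact permutation test gave p = 0.0857. CO replicate 2 is the shallow library, with 4 SerCGA reads, and without it the log2 fold change was 1.10 (limma adjusted p = 0.148). When log2 depth was added to the model, SerCGA had a log2 fold change of 1.08 in F0 (limma adjusted p = 0.257) and of 1.26 in F1 (limma adjusted p = 0.0972).

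At a limma adjusted p under 0.05, 0 of the 4 serine tRFs and 0 of the 47 tRFs (0%) differed between OID and CO in F0, and the same counts held in F1. Limma-voom on the recovered reads also called 0 of 47 in each generation. At an unadjusted p under 0.05, 10 of the 47 tRFs passed in F0 and 8 in F1, SerCGA among them in both generations (limma, main fits). That pass depended on the setting. With limma-voom the unadjusted p of SerCGA was 0.265 in F0 and 0.0546 in F1. Scaled without GlyGCC and GluCTC, it was 0.124 in F0 and 0.0292 in F1 (limma). In the main fits SerCGA was thus 1 of 4 serine tRFs that were higher in OID by that criterion, beside 12.8% of all tRFs in F0 and 6.38% in F1. In F0 it was also the only serine tRF in which all OID males exceeded all CO males, which held for 10.6% of all tRFs. By log2 fold change SerCGA ranked number 6 of 47 from the top in F0 and number 4 in F1.

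SerAGA, whose tRNA reads codons that include TCT and TCC, had a log2 fold change of opposite sign to SerCGA in F0. In F1 its sign was the same. CO F0 males had 221, 155 and 338 units of SerAGA, from 140, 60 and 7 reads. OID F0 males had 265, 120, 111 and 113, from 2507, 36, 379 and 53 reads. OID replicate 1 was high and lay among the CO males, while the other 3 lay below all of them. The log2 fold change was -0.68 (limma SE 0.43, 95% interval -1.66 to 0.31, adjusted p = 0.436). It was -0.39 without CO replicate 3, whose SerAGA value rests on 7 reads (limma adjusted p = 0.642). In F1, CO males had 106, 113, 149 and 134 units and OID males 108, 153, 241 and 146 units. The groups overlapped, with OID replicate 3 highest, and the log2 fold change was 0.32 (limma SE 0.30, 95% interval -0.33 to 0.97, adjusted p = 0.557), or 0.27 without the shallow CO replicate 2 and 0.11 without OID replicate 3.

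SerGCT, whose tRNA reads AGC and AGT, made up most of the family, and its log2 fold change was positive in F0 and negative in F1. In F0 its value was 535, 427 and 1446 in CO males and 1138, 516, 1839 and 1447 in OID males. The shallow CO replicate 3, at 30 SerGCT reads, had the highest CO value and lay about level with OID replicate 4. The log2 fold change was 0.69 (limma SE 0.57, 95% interval -0.64 to 2.02, adjusted p = 0.513). Without CO replicate 3 it was 1.22 (limma adjusted p = 0.205), and without CO replicate 2 it was 0.35. In F1 CO males had 754, 639, 1847 and 1431 units and OID males 964, 528, 790 and 782. CO replicates 3 and 4 lay above all OID males, and the other CO males among them. The log2 fold change was -0.50 (limma SE 0.38, 95% interval -1.33 to 0.32, adjusted p = 0.434). It was -0.75 without the shallow CO replicate 2 (limma adjusted p = 0.214) and -0.24 without CO replicate 3 (limma adjusted p = 0.725).

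SerTGA, whose tRNA reads mainly TCA, had the smallest log2 fold change of the 4 in both generations. Its values in F0 were 99.8, 80.6 and 96.9 in CO males and 107, 76.9, 74.8 and 59.8 in OID males. In F1 they were 61.3, 151, 72.4 and 75.7 in CO males and 60.3, 77.8, 99.2 and 121 in OID males. The groups overlapped in both generations, and the highest CO value in F1, 151, came from 8 reads of the shallow replicate 2. The log2 fold change was -0.24 in F0 (limma 95% interval -0.90 to 0.43, adjusted p = 0.661) and 0.04 in F1 (95% interval -0.72 to 0.80, adjusted p = 0.914). Without the shallow libraries it was -0.20 in F0 and 0.31 in F1 (limma adjusted p = 0.710 and adjusted p = 0.455), and with log2 depth in the model -0.41 and 0.50. The intervals of SerTGA and SerCGA overlapped in both generations.

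**Figure D2:**
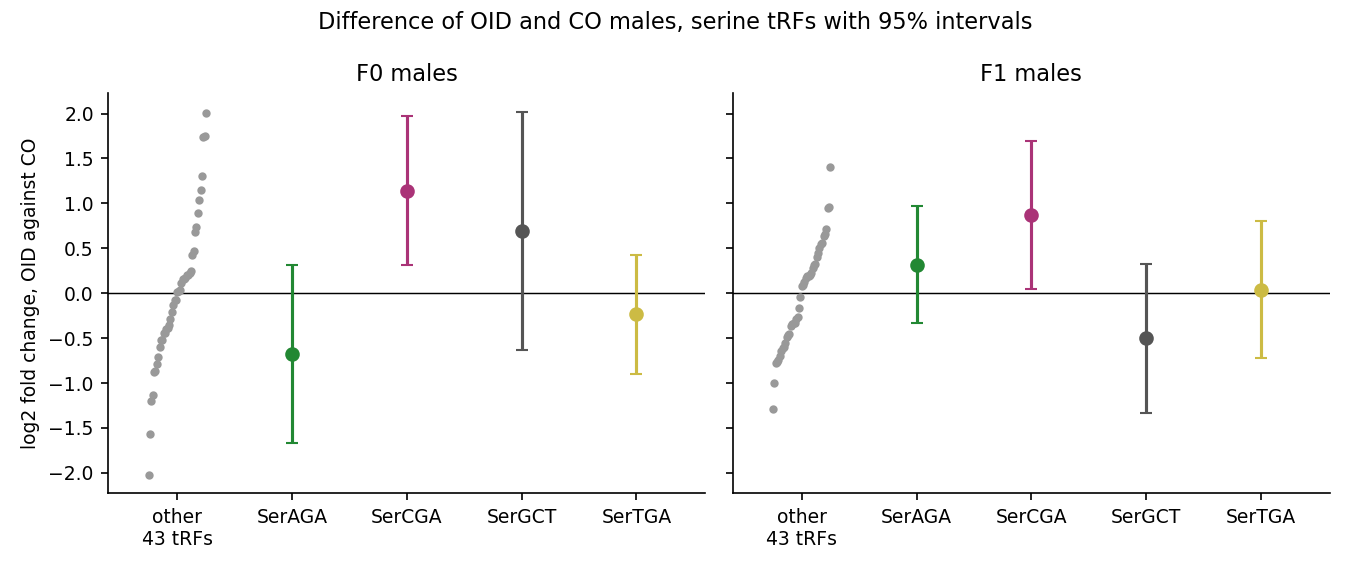
Limma log2 fold change of OID against CO males (y axis) in F0 (left) and F1 (right), with 95% intervals for the 4 serine tRFs and grey points for the other 43 tRFs in order of size. The interval of SerCGA lies above 0 in both generations before adjustment, and those of SerAGA, SerGCT and SerTGA include 0.

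Rescaling the libraries without GlyGCC and GluCTC moved the median log2 fold change of all 47 tRFs in F0 from 0.02 to -0.33. On that scale the log2 fold change of SerCGA in F0 was 0.80 (limma adjusted p = 0.320). It lay 1.128 above the median of all tRFs, against 1.124 on the deposited scale. This distance was bound to stay nearly the same, because rescaling shifts all tRFs of a library alike. SerAGA was then at -1.02 and SerGCT at 0.34, and no serine tRF changed its sign in F0 or F1. Because a shift of scale moves all fragments of a library together, the makeup of the family was compared next.

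The shares of the 4 tRFs in the serine sum do not depend on the scale of a library, apart from the small offset. The share of SerCGA in CO F0 males was 5.62%, 7.63% and 2.52%, and in OID F0 males 5.21%, 12.3%, 9.29% and 5.82%. The groups overlapped, with means of 5.26% ± 2.57 (SD, n = 3) and 8.16% ± 3.31 (SD, n = 4), a difference of 2.91 points (two-sided exact permutation test, p = 0.286), or of 1.54 points without the shallow CO F0 replicate 3 (exact permutation p = 0.667). The SerCGA share in F1 was 4.93%, 7.73%, 1.47% and 2.54% in CO males and 8.24%, 5.90%, 7.25% and 11.1% in OID males. Here 3 of the 4 CO males lay below all OID males. The means were 4.17% ± 2.78 (SD, n = 4) and 8.12% ± 2.19 (SD, n = 4), with a difference of 3.95 points (two-sided exact permutation test, p = 0.0857). Without CO F1 replicate 2 the difference was 5.13 points and the groups did not overlap (exact permutation p = 0.0571, the smallest that 3 against 4 allows).

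SerAGA was the only serine tRF whose shares did not overlap between the F0 groups. It made up 24.4%, 21.7% and 17.5% of the serine sum in CO F0 males and 16.6%, 14.8%, 4.97% and 6.56% in OID F0 males. Every OID male lay below every CO male, although OID replicate 1 was close to CO replicate 3, whose share has a 95% Wilson interval of 8.75% to 31.95%. The means were 21.2% ± 3.47 (SD, n = 3) and 10.7% ± 5.82 (SD, n = 4), a difference of -10.5 points (two-sided exact permutation test, p = 0.0571, the smallest possible), -12.3 points without CO replicate 3, and from -12.4 to -8.54 points with each male left out. In F1 the difference had the other sign. SerAGA made up 11.0%, 11.6%, 7.09% and 7.98% in CO males and 8.78%, 19.0%, 19.8% and 12.4% in OID males, with 3 of the 4 OID males above all CO males. The difference was 5.57 points (two-sided exact permutation test, p = 0.114), or 6.29 points without the shallow CO replicate 2.

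The difference in the SerGCT share had the opposite sign to that of SerAGA in both generations. The share was 59.0%, 59.5% and 74.9% in CO F0 males and 71.4%, 63.4%, 82.4% and 84.1% in OID F0 males, with means of 64.5% ± 9.08 (SD, n = 3) and 75.3% ± 9.74 (SD, n = 4). The groups overlapped because of CO replicate 3 (difference of 10.9 points, two-sided exact permutation test, p = 0.171), and without it the difference was 16.1 points (exact permutation p = 0.133, the smallest that 2 against 4 allows), with every OID male above both CO males. In F1 the SerGCT share was 77.8%, 65.3%, 88.0% and 85.0% in CO males and 78.1%, 65.5%, 64.9% and 66.3% in OID males. OID replicate 1 stood apart from its group, at the level of CO replicate 1, and the difference was -10.3 points (two-sided exact permutation test, p = 0.200), or -14.9 points without the shallow CO replicate 2 (exact permutation p = 0.114). For SerTGA the mean share in F0 was 9.09% ± 3.52 (SD, n = 3) for CO and 5.76% ± 2.93 (SD, n = 4) for OID males (two-sided exact permutation p = 0.229), a difference of -3.33 points, or -5.36 without CO replicate 3. The F1 means were 7.42% ± 5.46 (SD, n = 4) for CO and 8.24% ± 2.40 (SD, n = 4) for OID males (exact permutation p = 0.857), a difference of 0.818 points, or 3.48 without CO replicate 2. The SerTGA shares overlapped in both generations. These are 8 comparisons of shares, with p-values not adjusted, and shares of a sum are not independent of each other.

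**Figure D3:**
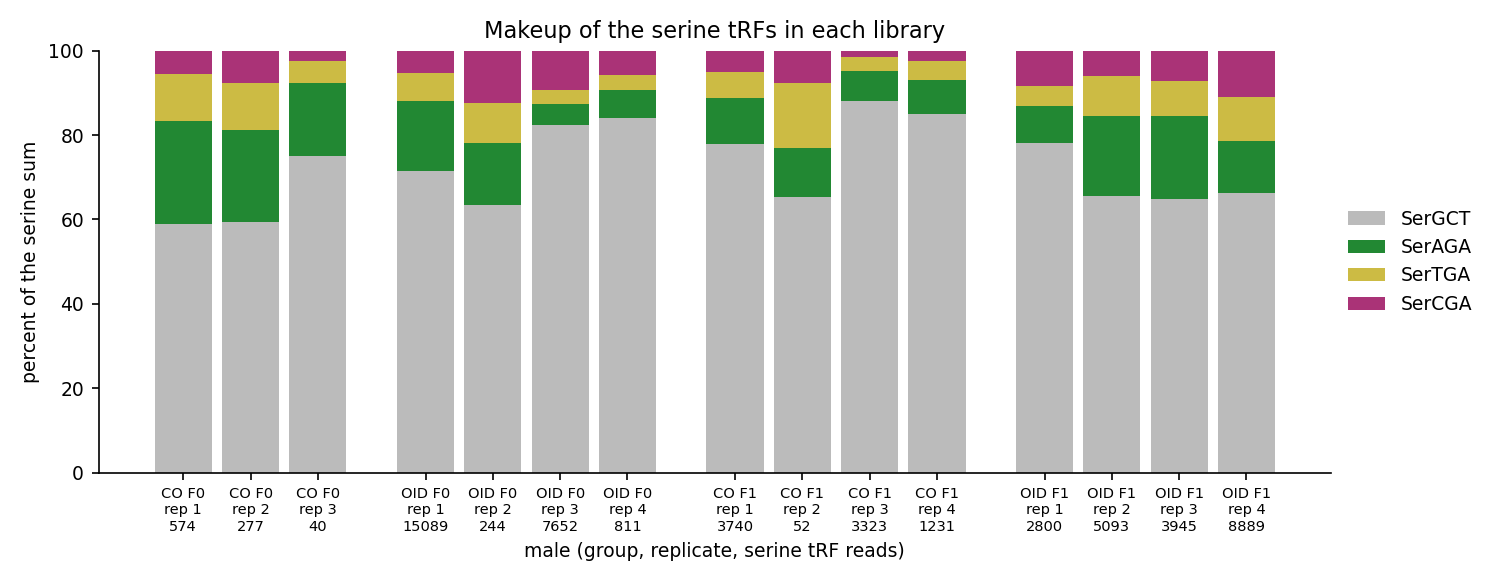
Percent of the serine sum (y axis) taken by each of the 4 serine tRFs in each male (x axis, with the group, replicate and number of serine reads). SerGCT is the largest portion of all 15 bars, between 59.0% and 88.0%, and the SerAGA portion is larger in the 3 CO F0 bars, 17.5% to 24.4%, than in the 4 CO F1 bars, 7.09% to 11.6%.

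Whether the other serine tRFs followed SerCGA was asked directly with the log2 ratio of SerCGA to each of them in each male. The paper, from these same libraries, reports SerCGA as increased in OID males of both generations. Its threshold was a P under 0.05 with a multiple-testing correction, and its methods do not name the test. By limma the adjusted p of SerCGA was 0.106 in F0 and 0.272 in F1, which did not pass. The ratios reuse the SerCGA values and are not independent of the paper's result. The ratio to SerTGA separated the groups in F0. It was -0.97, -0.56 and -0.99 in CO F0 males and -0.37, 0.38, 1.47 and 0.74 in OID F0 males. All OID males lay above all CO males, with a difference of 1.40 (two-sided exact permutation test, p = 0.0571, the smallest possible). In F1 the ratio was -0.36, -0.995, -1.23 and -0.82 in CO males and 0.75, -0.71, -0.17 and 0.11 in OID males. OID replicate 2 lay below CO replicate 1, and the difference was 0.85 (two-sided exact permutation test, p = 0.0571). SerCGA exceeded SerTGA in 0 of 3 CO F0, 3 of 4 OID F0, 0 of 4 CO F1 and 2 of 4 OID F1 males. Without the shallow libraries the difference of this ratio was 1.32 in F0 and 0.80 in F1, and it kept its sign when each male was left out in turn, from 1.09 to 1.71 in F0 and from 0.60 to 1.08 in F1.

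The log2 ratio of SerCGA to SerAGA was higher in OID males by 1.84 in F0 and by 0.57 in F1. In F0 it was -2.12, -1.51 and -2.79 in CO males and -1.67, -0.26, 0.90 and -0.17 in OID males, so that 3 of the 4 OID males lay above all CO males and replicate 1 did not (two-sided exact permutation test, p = 0.114). The F1 values were -1.15, -0.58, -2.27 and -1.65 in CO males and -0.09, -1.69, -1.45 and -0.16 in OID males, which overlapped (two-sided exact permutation test, p = 0.343). Without the shallow libraries the differences were 1.51 in F0 and 0.85 in F1. Against SerGCT the smaller difference was that of F0.

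The log2 ratio of SerCGA to SerGCT was -3.39, -2.96 and -4.89 in CO F0 males and -3.78, -2.36, -3.15 and -3.85 in OID F0 males. The groups overlapped, with a difference of 0.46 (two-sided exact permutation test, p = 0.514), and without CO replicate 3 it was -0.11, so that its sign rests on that shallow library. In F0, SerGCT was thus the serine tRF whose ratio to SerCGA differed least between the diets. In F1 the ratio was -3.98, -3.08, -5.91 and -5.06 in CO males and -3.24, -3.47, -3.16 and -2.58 in OID males. Only CO replicate 2, the shallow library, reached the OID values, and the difference was 1.39 (two-sided exact permutation test, p = 0.114), or 1.87 without it (exact permutation p = 0.0571, the smallest that 3 against 4 allows). None of the 6 ratio comparisons, with p-values not adjusted, reached a p under 0.05, which the 3 against 4 males of F0 cannot reach.

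**Figure D4:**
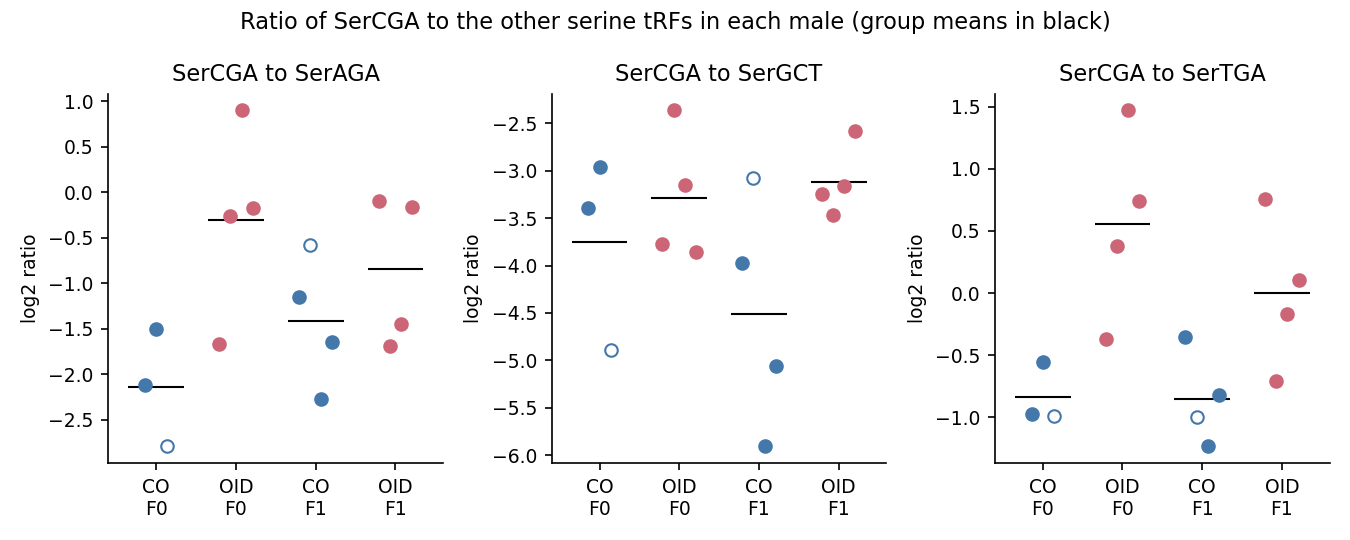
Log2 ratio (y axis, a separate scale for each panel) of SerCGA to SerAGA, SerGCT and SerTGA in each male, by group on the x axis. Blue is CO, red is OID, open circles are the 2 libraries with fewer than 100 serine reads and black lines are group means. The ratio to SerTGA lies between -0.37 and 1.47 in OID F0 males, above all CO F0 males.

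The generations were compared within each diet group next. Between CO F1 and CO F0 males, the log2 fold change of SerAGA was -0.86 (limma SE 0.41, 95% interval -1.74 to 0.02, adjusted p = 0.807), and those of SerCGA, SerGCT and SerTGA were -0.13, 0.62 and -0.12 (limma adjusted p = 0.895, 0.840 and 0.895). Without both shallow libraries they were -0.52 for SerAGA, -0.40 for SerCGA, 1.40 for SerGCT and -0.36 for SerTGA (limma adjusted p of at least 0.184), and without CO F0 replicate 3 alone -0.57 for SerAGA and 1.15 for SerGCT. The CO F1 males all had less SerAGA than the CO F0 males, with a highest F1 value of 149 and a lowest F0 value of 155. SerAGA was the only 1 of the 47 tRFs (2.13%) of which this held. The reverse order, every CO F1 male above every CO F0 male, was not counted over the tRFs. At an adjusted p under 0.05, 0 of 47 tRFs (0%) passed in this comparison, 1 at an unadjusted p, and with the replicate number as a block 1 of 47 passed after adjustment, which was no serine tRF (limma adjusted p of SerAGA 0.398 with the block). Between OID F1 and OID F0 males the log2 fold changes were 0.14 for SerAGA, -0.40 for SerCGA, -0.58 for SerGCT and 0.15 for SerTGA (limma adjusted p = 0.832, 0.544, 0.450 and 0.810), with 0 of 47 tRFs (0%) passing after adjustment and 8 before. These comparisons use the same males as those of the diets.

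On the log2 scale, no interaction of a serine tRF passed the threshold after adjustment. The interaction of diet and generation was 0.99 for SerAGA (limma SE 0.53, adjusted p = 0.657), -0.27 for SerCGA (SE 0.56, adjusted p = 0.988), -1.20 for SerGCT (SE 0.68, adjusted p = 0.657) and 0.27 for SerTGA (SE 0.50, adjusted p = 0.988), with 0 of 47 tRFs (0%) called and 2 at an unadjusted p under 0.05. Without the 2 shallow libraries it was 0.66 for SerAGA (limma adjusted p = 0.997) and -1.97 for SerGCT (limma adjusted p = 0.279). In terms of shares, the difference of OID and CO for SerAGA went from -10.5 points in F0 to 5.57 points in F1, a change of 16.0 points (two-sided exact permutation of the diet labels within generations, p = 0.00571). That of SerGCT went from 10.9 to -10.3 points, a change of -21.2 points (exact permutation p = 0.0392). These are 2 of 11 such comparisons of the 4 tRFs, made after the values were seen and not adjusted. Shares of a sum move against each other, so these 2 changes are not independent. The permutation assumes no diet difference in either generation. It is therefore not an exact test of whether the differences in F0 and F1 were equal. In repeats that left out 1 male each, SerGCT had a p under 0.05 in 5 of 15 and SerAGA in 15 of 15. The change in the SerCGA share was 1.04 points (exact permutation p = 0.757) and that in the SerTGA share 4.14 points (exact permutation p = 0.290), and without the 2 shallow libraries 3.595 points (exact permutation p = 0.320) and 8.84 points (exact permutation p = 0.00762).

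The other tRFs of the class with a long variable arm were set beside the serine tRFs. Of the 5 leucine tRFs and SeCTCA (selenocysteine), 0 passed after adjustment in either generation (limma). In F0, 1 of the 6 was lower in OID at an unadjusted p under 0.05, namely LeuCAG with a log2 fold change of -0.79 (limma adjusted p = 0.162), and 0 were higher. Over all 47 tRFs, 4 (8.51%) were lower in F0 by that criterion. The median log2 fold change of the 6 was -0.48 in F0 and 0.06 in F1, beside 0.02 and 0.08 over all 47 tRFs. SeCTCA had at most 3 reads in any library, and without it the median of the 5 leucine tRFs was -0.44 in F0 and 0.45 in F1. AlaCGC, ProCGG and ThrCGT are the other tRFs with an anticodon that begins with CG, as in SerCGA. They had log2 fold changes of 0.20, -0.21 and -0.87 in F0 and of -0.17, -0.37 and -0.49 in F1. At an unadjusted p under 0.05, 0 of these 3 passed in either generation (limma adjusted p of at least 0.436).

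The tRFs whose levels went most with those of each serine tRF were taken from the Pearson correlation of log2 values over the 15 libraries after the group means were removed, among the 44 other tRFs with enough reads. All points of a correlation share their library, its scale and its depth, and the values are descriptions. For SerAGA these were TyrGTA (r = 0.72) and GlyTCC (0.46), and SerTGA followed as the third (0.43). For SerCGA they were ArgACG (0.51) and MetCAT (0.47), for SerGCT IleAAT (0.62) and LeuCAA (0.61), and for SerTGA ArgTCT (0.46) and TyrGTA (0.44). Over the 13 libraries with at least 100 serine reads, r was 0.71 and 0.41 for the 2 of SerAGA. In the same libraries it was 0.72 and 0.38 for SerCGA, 0.65 and 0.27 for SerGCT, and 0.35 and 0.48 for SerTGA. By rank (Spearman), the 2 of SerCGA had 0.22 and 0.41 over the 15 libraries. SerAGA and SerTGA had r = 0.74 over the 13 libraries with at least 100 serine reads. The correlation of SerCGA with SerAGA was -0.40, number 43 of 44 from the top in the list for SerCGA, that with SerTGA was 0.33, number 6 of 44, and that with SerGCT was 0.03. Over the 13 libraries with at least 100 serine reads these were -0.42, 0.03 and 0.33 in the same order. No other serine tRF was among the 2 most alike to SerCGA over the 15 libraries.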

How the data were processed

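Reads were trimmed by the authors (Trimmomatic) and aligned to GRCm38/mm10. The authors assigned tRNAs with blastn, added shared reads weighted by alignment score, and deposited a normalized signal per tRF and library, which the paper calls TPM. The submitters' processing notes also list Bowtie2 2.3.4.1 and DESeq2. Groups and replicate numbers came from the sample labels. Of the 215 rows, 47 are tRFs. The 164 miRNA and 4 mature tRNA rows were not used.

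The 4 members, the lists and the tests were chosen with earlier results of these data known. Reads, which by the paper's methods are weighted reads, were recovered as whole multiples of 1 step per library after the offset of 0.5. Depth was 17966 to 5363471 tRF reads. Intervals are 95% Wilson intervals and, like a floor of 3 reads, cover counting error only. The reads carry no molecular identifiers and are not independent molecules. The closest of the 21 pairs of libraries of a group had a chi-square of 32.2 per degree of freedom, so none was counted as a repeat.

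Limma 3.58.1 in R 4.3.3 was run on log2 of the deposited signal + 1 over all 47 tRFs, with the 2 groups compared in the fit (all 4 for the interaction) and Benjamini-Hochberg adjustment over the 47. This scale understates changes of low values. The threshold was an adjusted p of 0.05. Tests of shares and ratios were exact permutation tests of means, two-sided (the method of scipy 1.17.1), and the fits were tested on simulated data. All 4 serine tRFs are named, with, for each, the 2 tRFs most correlated among those with at least 10 reads in at least 12 libraries. The SerGCT sequence is from a GENCODE M21 transcript at a RefSeq GRCm38.p6 locus. Some sequences are not reported here.

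Same-numbered CO males of F0 and F1 had correlations of their deviations from the group means of 0.530, 0.196 and 0.251, from the data alone, so the blocked value is given for that comparison. In the other comparisons at least 1 pair was below 0.1.

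Alternatives were a minimum mean value of 100, other pseudocounts (0.1 and 10), 2 other scalings, limma-voom on recovered reads, depth as a covariate, libraries of at least 100000 tRF or 100 serine reads, all groups in 1 fit, a replicate block, an intensity trend, medians, shares of all tRFs, each male left out, and, chosen after the data were seen, removal of the offset and the comparison of generations in shares.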

Additional observations from a re-analysis of the deposited data

Results flagged for a closer look

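SerAGA of OID F0 replicate 1, at a normalized value of 265, was far from the other 3 males of its group, which lay at 111 to 120. The gap was 0.909 of the range of the group on the log2 scale. The SerGCT share of OID F1 replicate 1, at 78.1%, lay apart from the other 3 males of its group, at 64.9% to 66.3%, with a gap of 0.890 of the range. Of the 24 groups of 4 values looked at in this way, chance gives about 1.2, and 2 were found. The difference of OID and CO in the SerAGA share differed between F0 and F1 by 16.0 points, and without the 2 libraries with fewer than 100 serine reads by 18.6 points (two-sided exact permutation of diet labels within generations, p = 0.00571 and p = 0.00762). That of the SerGCT share differed by -21.2 points, and without these libraries by -31.0 points (exact permutation p = 0.0392 and p = 0.00762). On the log2 scale of the values the same permutation gave p = 0.0759 for SerAGA (0.99) and p = 0.130 for SerGCT (-1.20), and without these libraries p = 0.240 (0.66) and p = 0.0343 (-1.97). The SerTGA share, at 4.14 points, differed by 8.84 points without these libraries (exact permutation p = 0.290 and p = 0.00762). These permutations assume no diet difference in either generation, so they are not exact tests of equal differences in F0 and F1. Those of the shares are also not independent of each other. The part of reads shared between serine tRNAs in these differences was not tested.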

How the results depend on the processing

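For the 39 results, 680 values under other settings were computed, of which 23 changed sign and 6 were counts that moved. No serine tRF passed an adjusted p of 0.05 under any setting that could be run. The log2 fold change of SerCGA ranged from 0.80 to 1.30 in F0 (limma adjusted p from 0.0583 to 0.696) and from 0.68 to 1.26 in F1 (limma adjusted p from 0.0972 to 0.448). With a minimum mean value of 100, SerCGA and SerTGA were left out and gave no value in the diet comparisons. The count of tRFs called in F0, 0, became 6 with all 4 groups in 1 fit, and lay between 0 and 2 when males were left out (1 without CO F0 replicate 1, 2 without OID F0 replicate 3). In F1 it lay between 0 and 1 (1 without CO F1 replicate 1), and for OID males between generations between 0 and 2 (2 without OID F0 replicate 3). With the replicate block the count for CO males between generations went from 0 to 1, and the block changed no other call.

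Signs turned for the results given next, and the cause was not tested. Not all of these were near 0 in the main setting. There, the log2 ratio of SerCGA to SerGCT in F0 differed by 0.46, and the interaction of SerCGA was -0.27. The log2 ratio of SerCGA to SerGCT in F0 was -0.11 without libraries under 100 serine reads and -0.0697 as a difference of medians, and from -0.11 (without CO F0 replicate 3) to 0.86 with each male left out. The SerTGA difference in F1 was -0.00131 points as a percent of all tRF values, and from -0.50 to 3.48 points of the serine sum with each male left out. With each male left out, the log2 fold change of SerTGA in F1 ran from -0.12 to 0.31. Between the generations of CO males, that of SerCGA ran from -0.36 to 0.0633 and that of SerTGA from -0.40 to 0.0284, and between those of OID males that of SerAGA ran from -0.0734 to 0.44 and that of SerTGA from -0.00865 to 0.32. The interaction of SerCGA ran from -0.47 to 0.0134. With depth as a covariate the log2 fold changes between generations were 0.0245 for SerCGA and 0.14 for SerTGA in CO, and -0.18 for SerAGA and -0.0921 for SerTGA in OID males. The interaction of SerCGA was 0.0599 with limma-voom and 0.15 when scaled without GlyGCC and GluCTC, which moved the median interaction of all tRFs from -0.05 to 0.38. The 2 shallow libraries limit the values that rest on their 1 to 8 reads of SerAGA, SerCGA and SerTGA.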
